A study of Mus musculus with 2 samples.

Results

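The transcripts described here are 10 secreted or shed growth factors that tumour macrophages and neutrophils are known to make: Vegfa, Pgf, Nrg1, Areg, Ereg, Hbegf, Pdgfb, Igf1, Tgfb1 and Osm. They were chosen by gene symbol, 10 of 32285 genes in the count tables, and their levels were read in 5 classes of barcodes gated on raw UMIs (unique molecular identifiers, each counting 1 captured RNA molecule). Macrophages had at least 10 UMIs of C1qa, C1qb and C1qc together, neutrophils at least 1 of Csf3r and Cxcr2, and T cells at least 2 of Cd3d, Cd3e and Cd3g, the last 2 classes with fewer than 3 C1q UMIs. Dendritic cells had at least 1 Flt3 UMI and epithelial cells at least 10 UMIs of Krt8 and Krt18, both with fewer than 10 C1q UMIs. The gates do not use any of the 10 genes.

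The data are 1 droplet library from mouse tumours labelled CEP, the series' title naming cepharanthine, a plant alkaloid, and 1 from vehicle tumours. Both groups were tumours digested with collagenase D and DNase I and enriched for cells carrying CD45, the surface protein of leukocytes. The design text states 5 biological replicates per group, but no barcode is tied to an animal, so each group is 1 sample and no test between groups was possible. The sources used here do not give mouse strain, age, tumour model, dose or time.

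Vegfa and Pgf act on VEGF receptors and drive the growth of blood vessels. Areg, Ereg and Hbegf are EGF-receptor ligands, and Nrg1 acts on the related receptors ERBB3 and ERBB4; these ligands are made as membrane precursors and freed by ADAM proteases. Pdgfb recruits pericytes and fibroblasts, Igf1 supports cell survival and growth, Tgfb1 is secreted in a latent form and restrains T cells while it activates fibroblasts, and Osm signals through the gp130 receptor to epithelium and stroma.

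RefSeq promoters of the GRCm38.p6 build, 250 bases before to 50 after a start site, matched 5 of the 10 genes with 7 promoters: Vegfa, Pgf, Areg, Igf1 and Tgfb1. Nrg1, Ereg, Hbegf, Pdgfb and Osm are named only. A pair of promoters is shown because Vegfa followed the hypoxia genes inside the classes described below, and because Areg was concentrated in few macrophages at many UMIs each. Capitals mark the hypoxia response core (ACGTG, searched on both strands, here as CACGT) and the cyclic AMP response element (TGACGTCA, its own reverse complement). The Vegfa window is the second of its 2 promoters, chr17:46025114-46025413 on the minus strand, with the core 211 bases before that start. This window lies inside the gene, which spans chr17:46016993-46032369, and not at its outer start. The Areg window is chr5:91139349-91139648 on the plus strand, with the element 61 bases before the start.
Vegfa: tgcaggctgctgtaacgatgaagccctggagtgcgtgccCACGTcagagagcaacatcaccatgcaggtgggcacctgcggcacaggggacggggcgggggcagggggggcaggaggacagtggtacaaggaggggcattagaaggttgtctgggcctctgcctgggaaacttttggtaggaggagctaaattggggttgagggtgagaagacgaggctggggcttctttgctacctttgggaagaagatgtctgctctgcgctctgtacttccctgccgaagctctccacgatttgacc
Areg: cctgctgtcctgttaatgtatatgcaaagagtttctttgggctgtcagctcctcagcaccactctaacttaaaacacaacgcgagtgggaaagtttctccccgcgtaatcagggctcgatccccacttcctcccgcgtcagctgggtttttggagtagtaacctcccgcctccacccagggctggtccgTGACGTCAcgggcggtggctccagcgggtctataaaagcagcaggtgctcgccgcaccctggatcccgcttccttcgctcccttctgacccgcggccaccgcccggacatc
The core stood in 19.6% and the element in 1.79% of 32851 promoters of the same length. The other Vegfa promoter, chr17:46032328-46032627 at the gene's outer start, held no core. A match describes these letters and is no site of binding.

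The CEP library held 88721774 UMIs and the Vehicle library 81208647, and 9544 and 9932 barcodes passed the limits of 200 or more genes and no more than 15% of UMIs from mitochondria. The gates took 4706 CEP and 5160 Vehicle barcodes as macrophages, 1687 and 2143 as neutrophils, 172 and 271 as T cells, 92 and 98 as dendritic cells and 834 and 133 as epithelial cells. The libraries share 136 barcode sequences, 53 CEP and 41 Vehicle barcodes fell in more than 1 gate, and 2107 and 2168 fell in none. Median depth was 10017 and 11228.5 UMIs for macrophages, 1776 and 1864 for neutrophils and 26412.5 and 27614 for epithelial cells. At least 2 of 6 listed markers of their own class marked 99.3% of the macrophages in the CEP library and 99.4% in the Vehicle library, 96.4% and 95.9% of neutrophils, 83.7% and 75.3% of T cells, 81.5% and 75.5% of dendritic cells and 96.6% and 97.7% of epithelial cells. The T cell gate also held neutrophil transcripts, 26212 CPM in the CEP library and 40643 CPM in the Vehicle library summed over 6 markers. Epithelial cells, which the CD45 selection should remove, made up 8.74% of kept CEP barcodes and 1.34% of kept Vehicle barcodes. Their transcripts lay in other gates too: 6 of 6 epithelial markers were found in macrophages, summing to 120.1 CPM in the CEP library and 32.2 CPM in the Vehicle library, and in neutrophils, summing to 347 and 57.0 CPM. The CEP over Vehicle ratios in macrophages and neutrophils are also given without the barcodes that carried at least 3 keratin UMIs. Splits by state genes are given as gated, and for Hbegf and Areg also without these barcodes.

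Levels are CPM, a gene's UMIs scaled to a gate total of 1000000 UMIs, with exact Poisson 95% intervals that cover counting error only. A CEP over Vehicle ratio is counted as higher or lower where it lies at least 0.32 from 0 on the log2 scale and its exact 95% counting interval leaves 0, among genes with at least 20 UMIs over both libraries. The libraries were prepared by 3′ capture, so levels are compared between classes for 1 gene and not between genes.

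Vegfa (ENSMUSG00000023951, mm10 chr17:46016993-46032369, minus strand) was highest in macrophages among the 5 gates. It stood at 268 CPM in CEP and 243 CPM in Vehicle macrophages, 185 and 220 CPM in neutrophils, 124 and 140.0 CPM in T cells, 31.0 and 54.7 CPM in dendritic cells and 71.2 and 62.4 CPM in epithelial cells. Macrophages exceeded neutrophils by 0.53 on the log2 scale in the CEP library (95% interval 0.44 to 0.63) and by 0.14 in the Vehicle library (0.06 to 0.23). The T cell value of the Vehicle library came mostly from 1 barcode with 23302 UMIs and 59 collagen UMIs, which held 104 of the 153 Vegfa UMIs, and without collagen carriers it was 46.8 CPM. Barcodes in no gate stood above them, at 365 CPM in the CEP library and 402 CPM in the Vehicle library. Macrophages held 71.6% of all Vegfa UMIs of the CEP library and 75.1% of those of the Vehicle library. Of the kept UMIs of all genes, they held 51842518 of 88655557 in the CEP library and 61626300 of 81159657 in the Vehicle library. Over all kept barcodes Vegfa stood at 219 CPM in the CEP library and 246 CPM in the Vehicle library. The Vehicle macrophages, at 243 CPM, were thus not above their library as a whole.

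Within macrophages, Vegfa was higher in barcodes that carried hypoxia genes, at least 5 UMIs of Bnip3, Ndrg1, Adm, Egln3 and Slc2a1. It reached 356 CPM in these and 191 CPM in the rest of the CEP macrophages, and 344 and 149 CPM in the Vehicle macrophages, log2 differences of 0.90 (0.85 to 0.95) and 1.21 (1.16 to 1.26). The hypoxia-gene macrophages were also deeper, with median depths of 12169 against 8791 UMIs in the CEP library and 13093.5 against 9801.5 UMIs in the Vehicle library. Macrophages with Arg1, the arginase that consumes arginine, held more Vegfa than those without by 0.77 in the CEP library and 0.79 in the Vehicle library. Those with Dcstamp, a gene of cell fusion, held more by 0.63 and 0.71. The reverse held for macrophages with Cd163 and Cbr2, genes of resident macrophages, which had 163 CPM against 272 CPM elsewhere in the CEP library and 116 against 249 CPM in the Vehicle library. Macrophages with the cell-cycle genes Mki67 and Top2a held 157 against 315 CPM and 153 against 282 CPM. Vegfa in neutrophils and epithelial cells followed the same hypoxia genes. Neutrophils with at least 2 of their UMIs had 212 CPM against 99.9 CPM in the CEP library and 254 against 130 CPM in the Vehicle library, and without keratin and collagen carriers 248 against 103 CPM and 259.5 against 128 CPM. Epithelial cells with at least 5 had 83.3 against 21.9 CPM and 69.6 against 27.5 CPM.

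Pgf (ENSMUSG00000004791, mm10 chr12:85166635-85177790, minus strand), which encodes placental growth factor, a VEGF relative that binds Flt1, was a macrophage transcript among the gates. It stood at 61.9 CPM in CEP and 50.2 CPM in Vehicle macrophages, 19.1 and 10.4 CPM in neutrophils, 15.1 and 8.23 CPM in T cells, 14.9 and 6.60 CPM in dendritic cells and 13.1 and 17.8 CPM in epithelial cells. Macrophages exceeded the next gate by 1.70 on the log2 scale in the CEP library (1.40 to 2.01, over neutrophils) and 1.49 in the Vehicle library (1.15 to 1.86, over epithelial cells). Among the 4 lower gates of the CEP library, neighbours in the order did not differ beyond counting error, while the interval of neutrophils (15.4 to 23.3 CPM) lay above that of epithelial cells (11.7 to 14.7 CPM). Ungated barcodes had 83.9 CPM in the CEP library and 30.6 CPM in the Vehicle library. Within macrophages Pgf shared several sides with Vegfa: it was higher with Dcstamp, at 100.01 against 57.7 CPM in the CEP library and 71.4 against 48.0 CPM in the Vehicle library. It was lower with Cd163 and Cbr2, at 19.3 against 63.6 CPM and 22.7 against 51.5 CPM. Cycling macrophages held 34.3 against 73.7 CPM and 30.0 against 58.9 CPM.

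**Figure D1:**
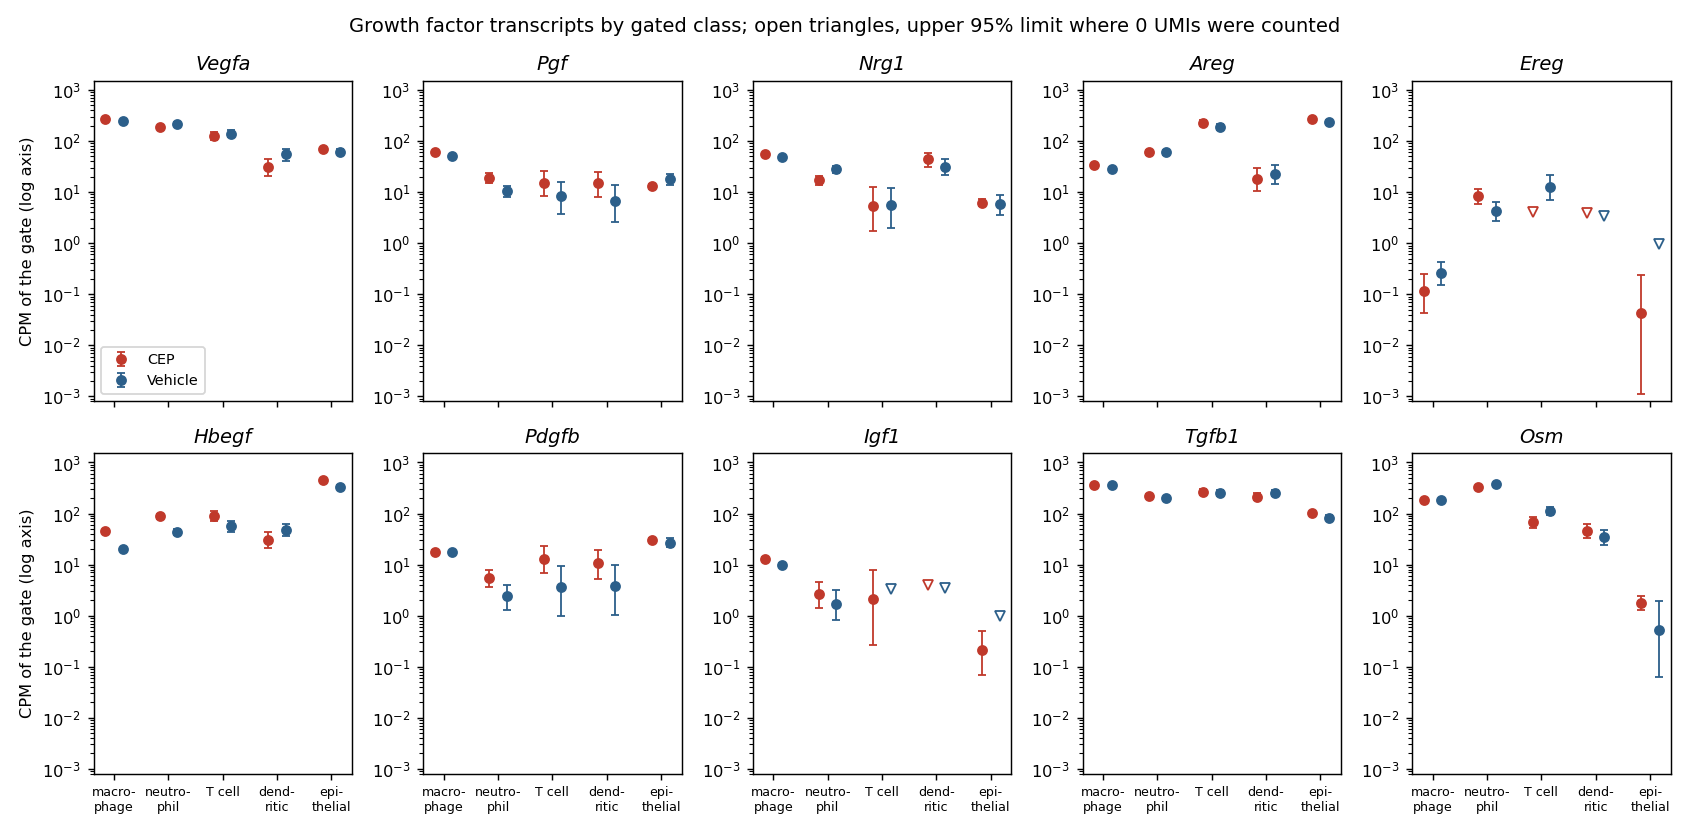
Level of each growth factor (CPM of the gate, log axis) in 5 gated classes, CEP in red left of Vehicle in blue; points are 1 library each, bars are exact Poisson 95% intervals and open triangles are upper limits where 0 UMIs were counted. Of the 5 gates, macrophages were highest in Vegfa, Pgf, Igf1 and Tgfb1, neutrophils in Osm, and the epithelial gate in Areg, Hbegf and Pdgfb. Macrophages were also highest in Nrg1, but in the CEP library not beyond counting error over dendritic cells.

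Nrg1 (ENSMUSG00000062991, mm10 chr8:31814551-32884029, minus strand) encodes neuregulin, the ligand of ERBB3 and ERBB4. Macrophages had 56.8 CPM in the CEP library and 48.1 CPM in the Vehicle library, dendritic cells 43.8 and 31.1 CPM, neutrophils 17.0 and 28.3 CPM, T cells 5.41 and 5.49 CPM and epithelial cells 6.25 and 5.77 CPM. Macrophages and dendritic cells did not differ beyond counting error in the CEP library (log2 difference 0.38, −0.07 to 0.86) and differed by 0.63 in the Vehicle library (0.14 to 1.17). Macrophages held 83.2% of Nrg1 UMIs in the CEP library and 84.0% in the Vehicle library. Over all kept barcodes Nrg1 stood at 40.0 CPM in the CEP library and 43.5 CPM in the Vehicle library. The gene is 1069 kb long, and the sources used here do not say if reads from introns were included. Dcstamp macrophages had 96.3 CPM against 52.5 CPM in the CEP library and 81.2 against 44.8 CPM in the Vehicle library. Macrophages with Ccr2, the receptor of monocyte-attracting chemokines, held more Nrg1 than those without by 0.37 (0.26 to 0.48) and 0.15 (0.04 to 0.26) on the log2 scale.

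Areg (ENSMUSG00000029378, mm10 chr5:91139599-91148432, plus strand), which encodes amphiregulin, was highest in epithelial cells and T cells. It stood at 270.2 CPM in CEP and 237 CPM in Vehicle epithelial cells, 223 and 189 CPM in T cells, 59.9 and 59.8 CPM in neutrophils, 33.9 and 28.8 CPM in macrophages and 18.1 and 22.6 CPM in dendritic cells. Epithelial cells exceeded T cells by 0.28 on the log2 scale in the CEP library (0.08 to 0.49) and 0.32 in the Vehicle library (0.10 to 0.55). The CEP T cell value includes 1 barcode with 33530 UMIs and 170 keratin UMIs, which held 70 of the 206 Areg UMIs. The highest gates of Areg were thus not myeloid. Epithelial cells held 72.5% of its UMIs in the CEP library and 24.9% in the Vehicle library, and macrophages 20.3% and 48.8%. Over all kept barcodes Areg stood at 97.6 CPM in the CEP library and 44.7 CPM in the Vehicle library, above the macrophage values. In macrophages the transcript was concentrated: 6.44% of CEP and 5.47% of Vehicle macrophages had a UMI, and barcodes with at least 3 held 89.5% and 88.9% of the UMIs. These macrophage shares lie close to the 6.52% and 6.12% of dendritic cells with a UMI, at median depths of 9765 and 9554 UMIs. The 145 CEP and 23 Vehicle keratin carriers held 646 of 1757 and 86 of 1772 Areg UMIs. Without them 4.67% of CEP and 5.29% of Vehicle macrophages had a UMI, at 23.2 and 27.6 CPM, and barcodes with at least 3 held 87.6% and 88.6% of the UMIs. No gate is known to lack Areg, so no background share is given. Hypoxia-gene macrophages had 52.6 CPM against 17.8 CPM in the CEP library and 42.7 against 15.8 CPM in the Vehicle library, and without keratin carriers 33.8 against 15.1 CPM and 40.8 against 15.6 CPM. In the Vehicle library 1 macrophage with 107 C1q and 10 Cd3 UMIs held 252 Areg UMIs, 14.2% of the class. The 209 Vehicle macrophages with at least 2 Cd3 UMIs held 432 of 1772 Areg UMIs, and the 162 CEP macrophages of that kind held 120 of 1757.

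Hbegf (ENSMUSG00000024486, mm10 chr18:36504927-36515805, minus strand), which encodes heparin-binding EGF-like growth factor, was highest by CPM in epithelial cells in both libraries. It stood at 461 CPM in CEP and 338 CPM in Vehicle epithelial cells, 89.8 and 55.8 CPM in T cells, 87.7 and 43.7 CPM in neutrophils, 31.0 and 48.1 CPM in dendritic cells and 45.4 and 19.9 CPM in macrophages. Without the few keratin carriers among them, dendritic cells had 4.56 CPM in the CEP library and 7.92 CPM in the Vehicle library. The epithelial gate exceeded the next by 2.36 on the log2 scale in the CEP library (2.05 to 2.69) and 2.60 in the Vehicle library (2.23 to 3.00). Of the epithelial cells, 90.9% in the CEP library and 85.7% in the Vehicle library had a UMI. Hbegf had 10693 UMIs in CEP and 1291 in Vehicle epithelial cells, and 2353 and 1227 in macrophages. Within macrophages it was higher with Cd163 and Cbr2, at 115 CPM against 42.6 CPM in the CEP library and 69.0 against 17.6 CPM in the Vehicle library, and lower with Ccr2, by 0.97 and 0.91 on the log2 scale. Keratin carriers, which held 53.3% of Hbegf UMIs in CEP macrophages and 12.1% in Vehicle macrophages, enter these values. Without them, Cd163 and Cbr2 macrophages had 89.8 CPM against 20.5 CPM in the CEP library and 53.0 against 16.0 CPM in the Vehicle library, and the differences with Ccr2 were −0.92 and −1.10. Other splits of CEP macrophages changed side: with Mki67 and Top2a the log2 difference was 0.77 as gated and −0.47 without the carriers, and with Cxcl9 and Cxcl10 it was 0.55 and −0.87. Its place among the macrophage states was thus the reverse of that of Pgf for the Cd163 and Cbr2 macrophages.

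Ereg (ENSMUSG00000029377, mm10 chr5:91074622-91093646, plus strand), which encodes epiregulin, was near 0 in the gates. Neutrophils had 41 UMIs in the CEP library and 25 in the Vehicle library (8.32 and 4.27 CPM), macrophages 6 and 16 UMIs (0.116 and 0.260 CPM), T cells 0 and 14 and dendritic cells 0 and 0 UMIs. A count of 0 allows up to 3.25 CPM in CEP T cells and up to 3.20 and 2.83 CPM in CEP and Vehicle dendritic cells. Of all Ereg UMIs, 78.0% in the CEP library and 58.3% in the Vehicle library lay outside the gates. Ungated barcodes with at least 10 collagen UMIs, 33 in the CEP library and 13 in the Vehicle library, held 141 of 218 and 34 of 132 Ereg UMIs, and all 5 listed fibroblast markers were found in them. In the gated classes, collagen carriers held 30 of the 41 neutrophil UMIs of the CEP library and all 14 T cell UMIs of the Vehicle library.

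Pdgfb (ENSMUSG00000000489, mm10 chr15:79995874-80014977, minus strand), the B chain of platelet-derived growth factor, was highest in epithelial cells and next in macrophages. Epithelial cells had 30.4 CPM in the CEP library and 27.0 CPM in the Vehicle library, macrophages 17.9 and 17.5 CPM, T cells 13 and 3.66 CPM, dendritic cells 10.7 and 3.77 CPM and neutrophils 5.48 and 2.39 CPM. Epithelial cells exceeded macrophages by 0.76 (0.62 to 0.90) and 0.63 (0.32 to 0.92) on the log2 scale. Macrophages with Cd163 and Cbr2 had 45.2 CPM against 16.9 CPM in the CEP library and 34.3 against 16.7 CPM in the Vehicle library, and those with Dcstamp had 12.4 against 18.5 CPM and 8.92 against 18.4 CPM.

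Igf1 (ENSMUSG00000020053, mm10 chr10:87858265-87937042, plus strand), insulin-like growth factor 1, was found mostly in macrophages among the gates. They had 13.2 CPM in the CEP library and 9.93 CPM in the Vehicle library, against 2.64 and 1.71 CPM in neutrophils, and held 82.3% and 90.8% of its UMIs. Over all kept barcodes Igf1 stood at 9.35 CPM in the CEP library and 8.30 CPM in the Vehicle library. Ungated barcodes had 16.2 CPM in the CEP library and 6.4 CPM in the Vehicle library. T cells had 2 and 0 UMIs, dendritic cells 0 and 0 and epithelial cells 5 and 0. The share of macrophages with a UMI was 8.58% in the CEP library and 7.33% in the Vehicle library, against 0.480% of CEP epithelial cells and 0 of 133 Vehicle epithelial cells, which allows up to 2.26%. As gated, Igf1 followed resident-type genes more steeply than any other of the 10. Cd163 and Cbr2 macrophages had 47.7 CPM against 11.8 CPM in the CEP library and 60.9 against 7.48 CPM in the Vehicle library, log2 differences of 2.02 (1.69 to 2.33) and 3.02 (2.76 to 3.28). Without keratin carriers they had 56.1 against 12.3 CPM in the CEP library, where the Hbegf contrast given above was nearly as steep. Macrophages with the folate receptor gene Folr2 had 31.3 against 10.3 CPM and 33.0 against 6.32 CPM. It was lower with Ccr2, at 5.28 against 16.6 CPM and 4.43 against 13.3 CPM, and with Dcstamp, at 4.31 against 14.1 CPM and 2.10 against 10.7 CPM.

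Tgfb1 (ENSMUSG00000002603, mm10 chr7:25687002-25705077, plus strand), transforming growth factor beta 1, was present in every gate. Macrophages had 364 CPM in the CEP library and 365 CPM in the Vehicle library, T cells 268 and 252 CPM, neutrophils 225 and 200.5 CPM, dendritic cells 216 and 253 CPM and epithelial cells 102 and 82.6 CPM. Macrophages exceeded the next gate by 0.44 on the log2 scale in the CEP library (0.26 to 0.63) and 0.53 in the Vehicle library (0.36 to 0.71). Ungated barcodes had 483 CPM in the CEP library and 493 CPM in the Vehicle library. Its level hardly depended on the macrophage states. The log2 differences were 0.12 and 0.23 for Arg1, 0.00 and 0.11 for the hypoxia genes and 0.13 and 0.20 for Dcstamp, CEP before Vehicle library.

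Osm (ENSMUSG00000058755, mm10 chr11:4236420-4241026, plus strand), oncostatin M, was highest in neutrophils. They had 332 CPM in the CEP library and 375 CPM in the Vehicle library, macrophages 185 and 183 CPM, T cells 68.2 and 113 CPM, dendritic cells 45.9 and 34.0 CPM and epithelial cells 1.77 and 0.524 CPM. Neutrophils exceeded macrophages by 0.84 (0.76 to 0.92) and 1.04 (0.97 to 1.10) on the log2 scale. An Osm UMI was present in 38.0% of CEP and 36.9% of Vehicle neutrophils and in 61.3% and 62.2% of the deeper macrophages. After each barcode was thinned to 1000 UMIs, dropping 237 CEP and 216 Vehicle neutrophils, the shares were 25.9% and 23.3% of neutrophils and 15.7% and 15.2% of macrophages. Epithelial cells, the gate with the lowest level, had a UMI in 2.40% and 1.5%. Neutrophils with the chemokine genes Ccl3 and Ccl4 had 435 CPM against 294 CPM in the CEP library and 444 against 354 CPM in the Vehicle library.

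**Figure D2:**
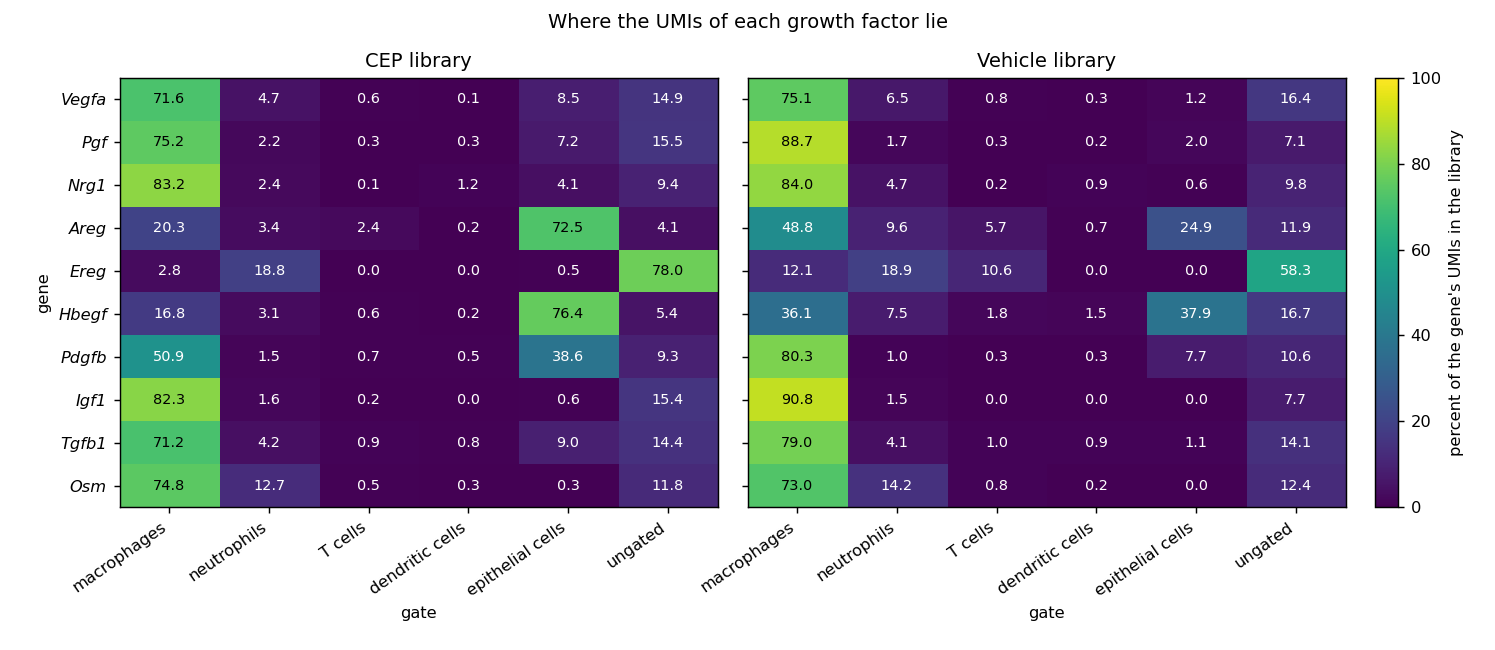
Percent of each gene's UMIs that lie in each gate and in ungated barcodes, CEP library left and Vehicle library right; a barcode in more than 1 gate counts in each. Macrophages hold most Vegfa, Pgf, Nrg1, Igf1, Tgfb1 and Osm in both libraries. Of the kept UMIs of all genes they hold 51842518 of 88655557 in the CEP library and 61626300 of 81159657 in the Vehicle library. In the Vehicle library Vegfa and Osm had 243 and 183 CPM in macrophages, against 246 and 190 CPM over all kept barcodes. The epithelial gate holds 76.4% of Hbegf UMIs in the CEP library and 37.9% in the Vehicle library.

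**Figure D3:**
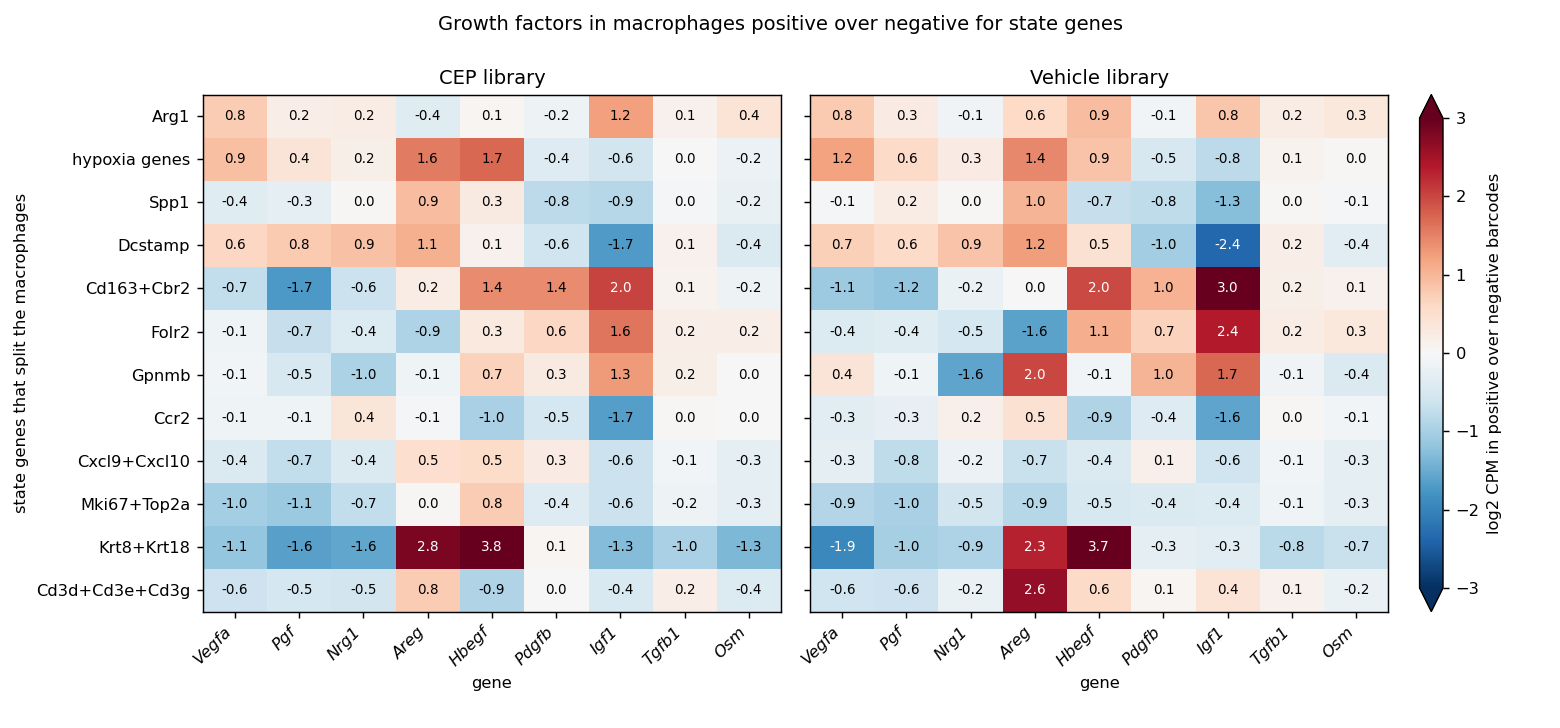
log2 ratio of CPM in macrophages positive over negative for state genes (rows), for 9 growth factors (columns; Ereg had too few UMIs), as gated, CEP library left and Vehicle library right. Igf1 is highest in Cd163+Cbr2 and Folr2 macrophages, and Vegfa in hypoxia-gene, Arg1 and Dcstamp macrophages, while Tgfb1 stays near 0 outside the keratin row.

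Between the libraries, most growth factors of macrophages differed by less than 0.32 on the log2 scale, and which ones passed that limit depended on the setting. As gated, 2 of 10 genes were counted as higher in CEP macrophages, Hbegf and Igf1, and 0 as lower, where 10.2% of 14126 genes were counted as higher and 3.28% as lower. Hbegf had 2353 UMIs in CEP and 1227 UMIs in Vehicle macrophages, a log2 ratio of 1.19 (1.09 to 1.29). Igf1 had 682 and 612 UMIs, a log2 ratio of 0.41 (0.25 to 0.57), which was 0.16 (−0.34 to 0.65) after thinning and 0.25 as a mean over barcodes, both short of 0.32. Pgf, Nrg1 and Areg were higher by 0.30, 0.24 and 0.24 and Vegfa by 0.14 (0.11 to 0.17), all short of 0.32. Pdgfb (0.04, −0.09 to 0.16), Tgfb1 (−0.01, −0.03 to 0.02) and Osm (0.02, −0.02 to 0.06) had intervals that include no difference. The median over the 10 genes was 0.19, against 0.02 over all genes counted.

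The Hbegf difference in macrophages came in large part with keratin. The 145 CEP and 23 Vehicle macrophages with at least 3 keratin UMIs held 1255 of the 2353 and 148 of the 1227 Hbegf UMIs. They were deep barcodes, with median depths of 26669 and 26171 UMIs. Hbegf stood at 320.2 CPM in these and 22.9 CPM in the other macrophages of the CEP library, and at 236 and 17.7 CPM in the Vehicle library. The level climbed with keratin in the CEP macrophages: 21.8 CPM at 0 keratin UMIs, 32.4 CPM at 1 to 2, 65.7 CPM at 3 to 9, 159 CPM at 10 to 49 and 391 CPM at 50 or more. For each 1000 keratin UMIs, keratin-carrying macrophages held 96.7 Hbegf UMIs in the CEP library and 66.5 in the Vehicle library, and the epithelial gate held 88.7 and 66.6. Vegfa ran the other way, with 126 CPM in keratin carriers against 279 CPM in other CEP macrophages and 63.7 against 245 CPM in Vehicle macrophages.

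**Figure D4:**
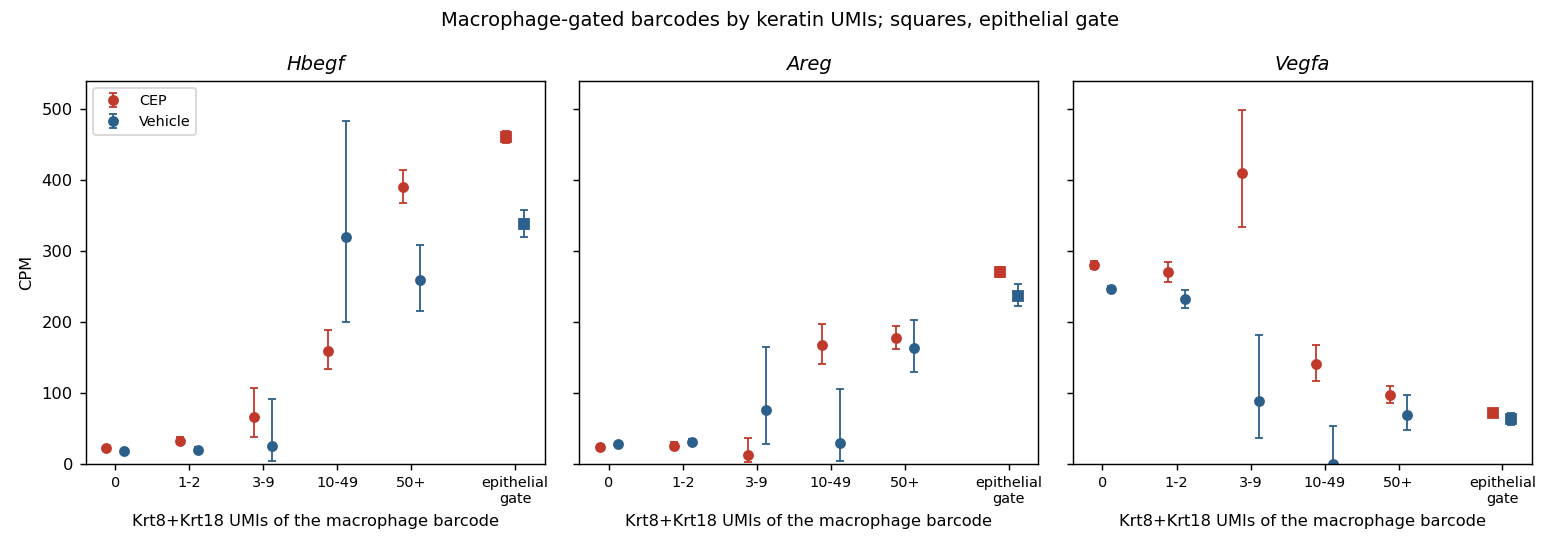
Level (CPM) of Hbegf, Areg and Vegfa in macrophage-gated barcodes by their Krt8 and Krt18 UMIs, with the epithelial gate as squares, CEP in red left of Vehicle in blue; bars are exact Poisson 95% intervals. Hbegf climbs with keratin to 391 CPM in CEP macrophages with 50 or more keratin UMIs, while Vegfa is at 96.8 CPM there.

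Without the keratin carriers, 4561 CEP and 5137 Vehicle macrophages remained, and 3 of 10 genes were counted as higher, Pgf, Hbegf and Igf1, and 0 as lower, where 3.58% of 13704 genes were higher and 3.39% lower. Hbegf had 22.9 CPM in CEP and 17.7 CPM in Vehicle macrophages, a log2 ratio of 0.37 (0.25 to 0.50). Igf1 had 13.8 and 9.95 CPM, a ratio of 0.47 (0.31 to 0.63), and Pgf 65.2 and 50.5 CPM, a ratio of 0.37 (0.30 to 0.44). The Hbegf difference was thus smaller, and those of Pgf and Igf1 were slightly larger, than with the carriers. Nrg1 had 59.8 and 48.4 CPM (0.31), Vegfa 279 and 245 CPM (0.19), Osm 194 and 184 CPM (0.08) and Tgfb1 378 and 367 CPM (0.04). Areg turned to the other side, with 23.2 CPM in CEP and 27.6 CPM in Vehicle macrophages (−0.25, −0.36 to −0.14). Without the Cd3 carriers as well, it stood at 21.7 and 21.9 CPM (−0.01, −0.14 to 0.11). The median over the 10 genes was 0.14, against 0.00 over all genes.

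The Igf1 ratio was also read within the macrophage states in which the gene is high and low. Among macrophages without Cd163 and Cbr2 it stood at 11.8 CPM in the CEP library and 7.48 CPM in the Vehicle library, a log2 ratio of 0.66 (0.48 to 0.84). Among the 187 CEP and 274 Vehicle macrophages with them it stood at 47.7 and 60.9 CPM, a ratio of −0.35 (−0.73 to 0.02). These made up 3.97% of CEP and 5.31% of Vehicle macrophages. Folr2 split it likewise, with a ratio of 0.70 (0.49 to 0.91) without and −0.08 (−0.34 to 0.18) with Folr2. Without keratin carriers the ratio was 0.71 without Cd163 and Cbr2 and −0.14 (−0.52 to 0.24) with them. The difference between these ratios was not tested. Vegfa had 356 CPM in CEP and 344 CPM in Vehicle macrophages with the hypoxia genes (0.05, 0.01 to 0.09) and 191 and 149 CPM in those without them (0.36, 0.30 to 0.42), and that difference was not tested either. Without keratin carriers these ratios were 0.17 and 0.38.

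In neutrophils, 4 of 10 genes were counted as higher in the CEP library, Pgf, Ereg, Hbegf and Pdgfb, and 1 as lower, Nrg1, where 28.6% of 10404 genes were higher and 5.04% lower. Hbegf had 432 UMIs in CEP and 256 in Vehicle neutrophils (1.0, 0.78 to 1.23). Pgf had 94 and 61 UMIs, Ereg 41 and 25 and Pdgfb 27 and 14. All 4 rested on few barcodes that carried keratin or collagen. The 30 keratin carriers held 15.4% of the UMIs of CEP neutrophils and 260 of the 432 Hbegf UMIs, 169 of the 295 Areg UMIs and 18 of the 27 Pdgfb UMIs. The 7 collagen carriers held 30 of the 41 Ereg UMIs and 37 of the 94 Pgf UMIs. In the Vehicle library there were 5 keratin carriers and 1 collagen carrier, and the 5 fibroblast markers summed to 1404 CPM in CEP neutrophils and 10.4 CPM in Vehicle neutrophils, with Dcn at 0.

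Without both kinds, 1650 CEP and 2137 Vehicle neutrophils remained, and 0 of 9 genes were higher and 2 lower, Nrg1 and Areg, where 4.08% of 9257 genes were higher and 3.99% lower. Nrg1 had 18.7 CPM in CEP and 28.7 CPM in Vehicle neutrophils (−0.62, −1.04 to −0.22). Among all gated neutrophils with at least 10 UMIs of S100a8 and S100a9 its interval included no difference (−0.50, −1.03 to 0.01). All gated neutrophils were also split by at least 3 UMIs of H2-Ab1 and Ccr2, genes of antigen-presenting cells and monocytes, after the values were seen. The Nrg1 ratio was −1.14 (−1.69 to −0.60) with them and −0.58 (−1.16 to −0.01) without them. Areg had 31.3 and 59.0 CPM (−0.91, −1.22 to −0.61), after 59.9 and 59.8 CPM as gated. Its UMIs lay in 31 CEP and 85 Vehicle barcodes, and those with at least 3 held 82.5% and 80.8% of them. The gate also held 19 CEP and 33 Vehicle barcodes with at least 2 Cd3 UMIs, which were not left out, and their part in the Areg ratio was not tested. Hbegf had 40.5 and 43.0 CPM (−0.08, −0.38 to 0.21) and Pgf 9.45 and 9.74 CPM (−0.04, −0.68 to 0.58). Vegfa had 206 and 223 CPM (−0.11, −0.24 to 0.02), Tgfb1 245 and 203 CPM (0.27, 0.14 to 0.39) and Osm 399 and 382 CPM (0.06, −0.03 to 0.16). The median over the 9 genes was −0.08, against −0.01 over all genes, and over the 10 genes as gated it was 0.40, against 0.17.

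**Figure D5:**
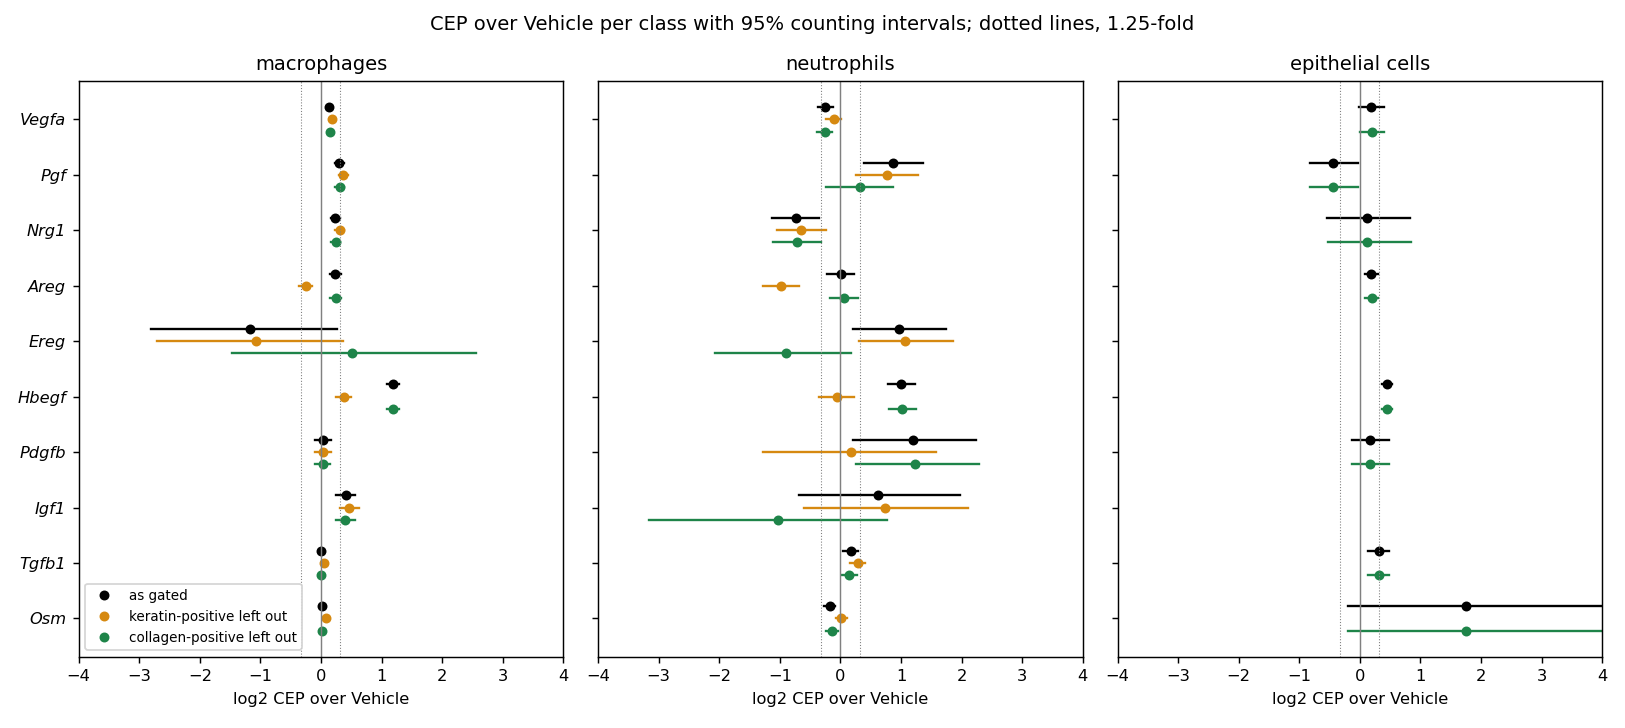
log2 CEP over Vehicle ratio of each growth factor in macrophages, neutrophils and epithelial cells with exact 95% counting intervals, as gated (black), without keratin carriers (orange) and without collagen carriers (green); dotted lines mark the limits of 0.32 either way. Hbegf in macrophages moves to 0.37 without keratin carriers and in neutrophils to −0.06, and Ereg in neutrophils moves to −0.89 without collagen carriers.

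T cells and dendritic cells were few. Of 6 genes with enough UMIs in T cells, Hbegf was counted as higher, at 89.8 CPM in the CEP library and 55.8 CPM in the Vehicle library (0.69, 0.19 to 1.19), and Osm as lower, at 68.2 and 113 CPM (−0.74, −1.20 to −0.29). Of all 7988 genes, 7.56% were higher and 6.5% lower. Without 4 CEP keratin carriers, which held 57 of its 83 UMIs, Hbegf was at 32.6 CPM in the CEP library. Among T cells with fewer than 10 UMIs of S100a8 and S100a9, Osm was at 48.6 CPM in CEP and 20.2 CPM in Vehicle T cells, the opposite direction. Of 7 genes in dendritic cells, Vegfa was lower, with 29 UMIs in CEP and 58 in Vehicle cells (−0.82, −1.52 to −0.16; −0.69, −1.40 to −0.02 without keratin carriers), and 0 were higher, where 4.82% of 7587 genes were higher and 4.15% lower. The Vegfa interval included no difference without barcodes in more than 1 gate (−0.57, −1.29 to 0.14) and after thinning (−1.94, −7.56 to 1.40). In the Vehicle library 1 barcode of the dendritic gate held 16 of the 58 Vegfa UMIs. B cell markers in that gate summed to 54.4 CPM in the CEP library and 704 CPM in the Vehicle library, with Ms4a1 at 0 in both, and their part in the Vegfa value was not tested.

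In epithelial cells, the class with the most Hbegf, 1 of 8 genes was counted as higher and 1 as lower in the CEP library, where 3.64% of 11991 genes were higher and 5.5% lower. Hbegf was higher, with 461 CPM in CEP and 338 CPM in Vehicle cells (0.44, 0.36 to 0.53), and after thinning its ratio was 0.18 (−0.24 to 0.62). Pgf was lower, with 13.1 and 17.8 CPM (−0.44, −0.82 to −0.04), and 1 Vehicle barcode held 13 of its 68 Vehicle UMIs. That ratio was 0.29 without the highest 8% of doublet scores and 0.81 after thinning, so its direction depended on the setting. Areg had 270.2 and 237 CPM (0.19, 0.09 to 0.29), Vegfa 71.2 and 62.4 CPM (0.19) and Tgfb1 102 and 82.6 CPM (0.31, 0.14 to 0.49). Areg and Hbegf differed more over whole libraries than within these classes. Over all kept barcodes Hbegf was at 158 CPM in the CEP library and 41.9 CPM in the Vehicle library and Areg at 97.6 and 44.7 CPM. Without the epithelial gate and keratin carriers Hbegf was at 32.9 and 25.0 CPM and Areg at 27.9 and 34.2 CPM.

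The relatives, receptors and releasing enzymes of these factors were read from 3 fixed lists. Of 20 relatives, 12 had enough UMIs in macrophages, and as gated Tgfa, Pdgfa, Lif and Csf1 were counted as higher and Nrg2 as lower. Of all genes, 10.2% were higher and 3.28% lower there. Without keratin carriers 2 of 10 relatives were higher and 1 lower, beside 3.58% and 3.39% of all genes. Csf1, the growth factor of macrophages themselves, had 48.3 CPM in CEP and 35 CPM in Vehicle macrophages (0.46) and Pdgfa 29.9 and 22.8 CPM (0.39), while Nrg2 had 1.42 and 2.39 CPM (−0.75). By CPM Csf1 was highest in neutrophils, with 1932 UMIs in the CEP library and 2537 UMIs, or 433 CPM, in the Vehicle library.

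Of 21 receptors, 20 were measured in macrophages and 9 were higher as gated and 0 lower, beside 10.2% and 3.28% of all genes. Without keratin carriers 4 of 18 were higher, beside 3.58% of all genes. They were Kdr, Igf1r, Igf2r and Il6st. Igf1r, the IGF1 receptor, had 16.4 CPM in CEP and 12.9 CPM in Vehicle macrophages (0.35). Igf2r had 3.44 and 2.21 CPM (0.64) and Il6st, which encodes gp130, 14.7 and 11.4 CPM (0.37). Osmr, the oncostatin M receptor, belonged to epithelial cells, at 28.3 CPM in the CEP library and 32.2 CPM in the Vehicle library, against 1.47 and 0.260 CPM in macrophages as gated. Egfr stood at 2.63 and 3.67 CPM in epithelial cells. Erbb3 was lower in CEP epithelial cells, at 4.13 CPM against 9.96 CPM in Vehicle epithelial cells (−1.27). It was 1 of 2 receptors counted as lower among 15, with 0 higher, beside 5.5% and 3.64% of all genes. Tgfbr2 was highest in T cells and macrophages, at 110.4 and 119 CPM in CEP and Vehicle T cells and 108 and 105 CPM in macrophages.

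Of 21 release and activation genes, 18 were measured in macrophages, 6 higher and 1 lower as gated, beside 10.2% and 3.28% of all genes. Without keratin carriers Ltbp3 and Epas1 were higher and Igfbp3 lower, of 17, beside 3.58% and 3.39% of all genes. Epas1, a hypoxia-inducible factor, had 8.33 CPM in CEP and 4.74 CPM in Vehicle macrophages (0.81), and Igfbp3, an IGF-binding protein, 0.355 and 2.77 CPM (−2.97). The sheddases Adam10 and Adam17 were present in every gate and differed by less than 0.32 on the log2 scale in macrophages without keratin carriers, with 74.1 CPM in CEP and 75.6 CPM in Vehicle macrophages for Adam10 and 72.9 and 80.1 CPM for Adam17. In neutrophils without keratin or collagen carriers, 0 of 4 relatives were counted either way. There 2 of 11 receptors were higher and 1 lower, and 1 of 11 release genes was higher and 1 lower. Of all genes, 4.08% were higher and 3.99% lower in these neutrophils. In epithelial cells Il11 was the 1 of 12 relatives counted as higher, at 12.4 CPM in CEP and 4.46 CPM in Vehicle cells (1.48). The release genes Thbs1, at 91.9 and 143 CPM (−0.64), and Igfbp5, at 2.50 and 32.5 CPM (−3.70), were lower there, 2 of 16, with 0 higher. Of all genes in epithelial cells, 3.64% were higher and 5.5% lower.

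The median log2 ratios of the relatives, receptors and release genes were 0.16, 0.10 and 0.13 in macrophages without keratin carriers, against 0.00 over all genes. In neutrophils without carriers they were 0.11, −0.02 and −0.04, against −0.01, and in epithelial cells −0.10, −0.16 and 0.04, against −0.03. Among T cells, 1 of 4 relatives and 1 of 8 receptors were higher, and 3 of 17 release genes were higher and 6 lower. Of all genes there, 7.56% were higher and 6.5% lower, and the 3 medians were 0.15, 0.07 and −0.15, against 0.01. Among dendritic cells, 0 of 3 relatives were counted either way, 1 of 8 receptors was higher and 1 lower, and 3 of 12 release genes were higher. Of all genes there, 4.82% were higher and 4.15% lower, and the medians were −0.31, 0.18 and 0.12, against −0.01. In neutrophils as gated, 6 of 8 relatives, 6 of 13 receptors and 7 of 16 release genes were higher, beside the 28.6% of all genes.

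Over the 10 points of 5 gates in 2 libraries, the genes whose log2(CPM + 1) ran most like a factor's were named among 10480 genes at 10 CPM or more at 1 point. For Osm they included Cd84 and Trp53inp2, each at Pearson r = 0.994, for Tgfb1 Pycard (0.985), Gng2 and Ms4a6b, and for Vegfa C1rl (0.979), Hacd4 and Usp36. Pgf was most like Pald1 (0.958), Nrg1 like Fam174a (0.975), Areg like Capg (0.987), Hbegf like Zbtb41 (0.986), Pdgfb like Ogfod3 (0.981), Ereg like Olfm4 (0.969) and Igf1 like Cd22 (0.977), Pla2g15 and Mertk, a receptor for apoptotic cells. The points of a library share its preparation, and the gates share barcodes, so these values describe the pattern over classes and were not tested.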

How the data were processed

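Cells from 1 CEP and 1 Vehicle tumour sample were captured by 10x 3′ v3 chemistry, per the labels. The deposited files hold whole-number UMI counts per gene and barcode, unnormalized; Cell Ranger 7.1.0 is named per the file headers, and Cell Ranger 5.0.1 with mm10 per the submitters' processing notes. Coordinates are from GENCODE vM21 on mm10.

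Barcodes passed with 200 or more genes and no more than 15% of UMIs from mitochondria, with a minimum depth of 500 UMIs, and Scrublet's automatic limit marked 0 doublets in each library, so doublets stayed in. Counts were summed per gate and library and given as CPM with exact Poisson intervals, shares with exact Clopper-Pearson intervals, and ratios with exact conditional binomial intervals at 95%. Intervals and limits from 3 counts cover counting error only. Thinning drew 1000 UMIs per barcode. Scanpy 1.11.5, pandas 2.3.3, scipy 1.17.1, matplotlib 3.10.9 and numpy 2.4.6 ran under Python 3.11.15, and the ratio calls were tested on simulated data.

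The genes, lists and gates were chosen with earlier results of these data known. The rule for naming took all 10 genes, the list genes at the highest level of each gate and the 3 most alike genes per factor; not all of these are printed, 1 is not reported here, and other list genes were named after their values were seen. State splits without carriers were added after the values were seen. Splits by Dcstamp, keratin, Cd3 and collagen were chosen after the values were seen. Of 15 alternatives, 6 were chosen after seeing the data. No barcode is tied to an animal, so no test between groups was made.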

Additional observations from a re-analysis of the deposited data

Results flagged for a closer look

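Several ratios lay on opposite sides of no difference in different classes, each with a counting interval that leaves 0; these differences were not tested, since each group is 1 library. Vegfa was higher in CEP macrophages (log2 CEP over Vehicle 0.14) and lower in CEP neutrophils (−0.25), a gap of 0.39, and lower in CEP dendritic cells (−0.82), a gap of 0.96. The dendritic interval included no difference without barcodes in more than 1 gate and after thinning, and 1 Vehicle dendritic barcode held 16 of the 58 UMIs. Without keratin and collagen carriers the neutrophil ratio was −0.11 with an interval of −0.24 to 0.02. Nrg1 was higher in CEP macrophages (0.24) and lower in CEP neutrophils (−0.73), a gap of 0.97, and stayed on both sides without the carriers, at 0.31 and −0.62. Among all gated neutrophils with at least 10 UMIs of S100a8 and S100a9, the Nrg1 interval included no difference. Pgf was higher in CEP macrophages (0.30) and CEP neutrophils (0.87) and lower in CEP epithelial cells (−0.44), gaps of 0.74 and 1.31. Without carriers the Pgf ratio in neutrophils was −0.04 (−0.68 to 0.58), and in epithelial cells it was 0.29 without the highest 8% of doublet scores and 0.81 after thinning, so these opposite sides did not hold under those settings.

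Ereg stood out in barcodes that no gate took. Ungated barcodes with at least 10 collagen UMIs had 200.3 CPM in the CEP library and 130.03 CPM in the Vehicle library, where 15 of 33 and 4 of 13 such barcodes had a UMI. The 5 fibroblast markers summed to 31073 and 38259 CPM in them. Vegfa was at 535 and 191 CPM, Pgf at 202 and 119 CPM and Igf1 at 96.6 and 61.2 CPM in the same barcodes, and Osm had 1 and 0 UMIs.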

How the results depend on the processing

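Of 481 values of single genes under 15 alternatives, 375 stayed within the counting interval of the reported value, 422 kept their sign, and 16 that had been counted as higher or lower changed sign. None of the 16 was in macrophages, where 2 or 3 genes were counted in every alternative. Hbegf was among them in every alternative, and Igf1 in all but thinning and the mean of barcode CPM, where Pgf was counted instead. Macrophages with 0 keratin UMIs, where Hbegf fell just short of the limit, were not among the alternatives. In neutrophils the count of 5 became 3 without the highest 8% of Scrublet scores, 3 after thinning to 1000 UMIs, 3 without collagen carriers and 2 without both carriers. Hbegf there became −0.11 without barcodes in more than 1 gate, −0.0547 after thinning, −0.0626 without keratin carriers and −0.0838 without both carriers. Ereg became −0.53 as a mean of barcode CPM, −0.89 without collagen carriers and −1.13 without both. Pdgfb became −0.43 without barcodes in more than 1 gate, and Pgf −0.0436 without both carriers. In T cells the count of 2 became 0 after thinning, 4 with no minimum of UMIs and 1 under the S100a8 and S100a9 limit. Hbegf there became −1.07 without barcodes in more than 1 gate, −0.78 without keratin carriers and −0.0906 under the S100 limit, and Osm became 0.92 and 1.27 without barcodes in more than 1 gate and under the S100 limit. In dendritic cells the count of 1 became 0 without barcodes in more than 1 gate and after thinning, 2 without the highest Scrublet scores, 3 with raised gate limits and 5 as a mean of barcode CPM. In epithelial cells the count of 2 became 0 after thinning and 4 as a mean of barcode CPM, and Pgf became 0.29 without the highest Scrublet scores and 0.81 after thinning. Thinning leaves fewer UMIs to count; the cause was not tested for the other changes. No paired analysis was possible because each group is 1 library, and no replicate could be left out. The intervals cover counting error and not variation between animals.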

Other observations

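Growth factors were also read side by side in macrophages without keratin carriers. Values come from the same barcodes that chose them and were not tested. In the 2223 CEP and 2486 Vehicle macrophages with at least 2 Vegfa UMIs, Pgf stood at 79.0 CPM against 48.1 CPM in the other CEP macrophages and at 65.1 against 33.3 CPM in the Vehicle library. Nrg1 stood at 78.0 against 37.2 CPM and 62.2 against 32.2 CPM, and Areg was higher by 1.60 and 1.85 on the log2 scale. Igf1 was on the other side, at 10.9 against 17.3 CPM and 7.05 against 13.4 CPM. Macrophages with at least 2 Hbegf UMIs, 192 in the CEP and 207 in the Vehicle library, had more Pdgfb, by 0.91 and 0.60 on the log2 scale, and more Igf1, by 0.98 and 0.74.

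Neutrophils with the granule genes Ltf, Ngp and Camp, made in immature neutrophils, were 94 CEP and 140 Vehicle barcodes. They had 69.7 CPM of Vegfa against 201 CPM in other CEP neutrophils and 76.6 against 252 CPM in the Vehicle library, and 0 and 1 Areg UMIs of 295 and 350. Neutrophil-gated barcodes with at least 3 UMIs of H2-Ab1 and Ccr2, genes of antigen-presenting cells and monocytes, a split chosen after the values were seen, were 86 CEP and 134 Vehicle barcodes, with median depths of 8019 and 5999 UMIs against 1721 and 1798 UMIs in the others. They had 540.2 CPM of Tgfb1 against 151 CPM in other CEP neutrophils and 638 against 121 CPM in the Vehicle library, and 45.5 against 10.3 CPM and 100.04 against 15.3 CPM of Nrg1. Without keratin and collagen carriers Tgfb1 stood there at 788 against 149.8 CPM in the CEP library and 645 against 122 CPM in the Vehicle library. These H2-Ab1 and Ccr2 barcodes held 19.2% of the UMIs of CEP and 15.4% of those of Vehicle neutrophils. Without them, Tgfb1 in the gate went from 225 to 151 CPM in the CEP library and from 200.5 to 121 CPM in the Vehicle library. Nrg1 went from 17.0 to 10.3 CPM and from 28.3 to 15.3 CPM. The 6 monocyte markers summed to 686 CPM in CEP and 911 CPM in Vehicle neutrophils as gated. Which kind of cell the H2-Ab1 and Ccr2 barcodes were was not tested.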
